A study of Mus musculus with 5 samples.

Results

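Proteasome genes were followed in macrophages from myeloma-bearing Matrigel plugs: all probe sets whose annotated symbol begins with Psma, Psmb, Psmc, Psmd or Psme and a digit, together with Ubd. The rule found 93 of the 45101 probe sets on the array, for 46 genes, and uses names only, not measured values. The members were nonetheless chosen with earlier results of these data known. The genes fall into an inducible or immunoproteasome group (6 genes, 7 probe sets), the constitutive catalytic subunits (3 genes, 3 probe sets), the other core subunits (13 genes, 27 probe sets) and the regulatory caps (22 genes, 53 probe sets). The prefix also took in 2 genes that are not subunits, Psmc3ip and Psme3ip1, with 3 probe sets.

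All mice were SCID animals on the Balb/c background, aged 7 to 12 weeks, with a transgenic T-cell receptor specific for the idiotype, the variable part of the antibody made by the MOPC315 myeloma. The SCID defect blocks the animals' own B- and T-cell receptor rearrangement, so T cells arise mainly through the transgenic receptor, and natural killer and myeloid cells remain. The mice received MOPC315 cells (tumoricidal macrophages, 3 arrays) or an antigen-loss variant of MOPC315 (control macrophages, 2 arrays) in Matrigel, a gelled matrix, under the skin, and CD11b+ cells were sorted from the plugs on day 8. The labels call the arrays biological replicates and do not say how many mice gave the RNA of each array. The arrays set macrophages from plugs with antigen-bearing myeloma beside macrophages from plugs where the myeloma had lost the antigen.

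The proteasome is a barrel-shaped protease that cuts ubiquitin-tagged proteins into peptides. Its core is built of rings of alpha subunits (Psma genes) around rings of beta subunits (Psmb genes), and only 3 kinds of beta subunit cut: Psmb5, Psmb6 and Psmb7. Under interferon-gamma, cells make Psmb8, Psmb9 and Psmb10, which take the places of Psmb5, Psmb6 and Psmb7 in newly built cores; such immunoproteasomes favour peptides that fit class I molecules. Caps sit on the ends of the core: one made of ATPases (Psmc genes) and further subunits (Psmd genes) unfolds tagged proteins, while Psme1 and Psme2, also interferon-inducible, form an activator ring. Ubd encodes a ubiquitin-like tag that sends proteins to the proteasome.

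Because catalytic subunits replace each other in pairs, the bases just upstream of their RefSeq start sites are shown for the replacing genes and for the replaced Psmb5 and Psmb6; none is shown for Psmb7. Each stretch is the last 120 bases before the start, 5′ to 3′ on the gene's strand in GRCm38.p6, with matches to the searched motifs in capitals. The positions are chr17:34198075-34198194 (plus strand) for Psmb8, chr14:54617996-54618115 (minus strand) for Psmb5, chr17:34187331-34187450 (minus strand) for Psmb9, chr11:70525237-70525356 (plus strand) for Psmb6 and chr8:105938393-105938512 (minus strand) for Psmb10.
Psmb8: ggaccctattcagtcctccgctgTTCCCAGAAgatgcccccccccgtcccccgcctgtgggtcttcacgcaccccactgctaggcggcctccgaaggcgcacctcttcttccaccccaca
Psmb5: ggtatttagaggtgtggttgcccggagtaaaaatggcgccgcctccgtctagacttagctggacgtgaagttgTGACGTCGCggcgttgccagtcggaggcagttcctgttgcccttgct
Psmb9: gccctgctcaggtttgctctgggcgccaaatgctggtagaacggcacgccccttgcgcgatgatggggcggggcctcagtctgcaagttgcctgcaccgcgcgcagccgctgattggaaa
Psmb6: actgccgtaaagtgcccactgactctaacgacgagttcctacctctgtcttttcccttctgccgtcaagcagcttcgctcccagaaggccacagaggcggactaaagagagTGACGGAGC
Psmb10: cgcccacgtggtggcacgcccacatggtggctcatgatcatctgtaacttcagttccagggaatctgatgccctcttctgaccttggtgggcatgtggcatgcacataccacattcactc
Motif matches were sought on both strands of the 250 bases before each start: the interferon-stimulated response element core (GAAA, any 2 bases, GAAA), the gamma-activated site TTCNNNGAA and the antioxidant response element TGACNNNGC, the last of which is bound by Nfe2l1, the factor that raises proteasome genes when the proteasome is blocked. Promoters were matched for 38 of the 46 genes. Matching was by single symbol, so the inducible Psme2/Psme2b, whose probe set carries both names, was not searched. The gamma-activated site was found in 1 of 5 inducible genes, Psmb8, and in 0 of the other matched members, against 7.02% of 32851 promoters. An antioxidant response element match stood in both matched constitutive catalytic genes, Psmb5 and Psmb6, and in 3 of 19 cap genes (Psmd9, Psmd12 and Psmc6). It stood in 0 of 10 other core genes and in 0 of 5 inducible genes. Over all matched members this was 5 of 38, against 10.2% of promoters. The response element core was found in Psmb3, Psmd4 and Psmd9 and in 0 of 5 inducible genes, against 2.98%. In RefSeq gene order Psmb9, Tap1, Psmb8 and Tap2 lie side by side, with Tap1 and Tap2 encoding the peptide transporter of class I loading, and Psmb5 lies beside Psmb11.

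Signals below are the deposited intensities after each array was scaled to a common median, and differences are on the log2 scale. Values under a floor of 4.79 were raised to it. The deposited array medians were 15.4 to 18.7 in tumoricidal and 22.6 and 18 in control replicates 1 and 2 with n = 3 and n = 2, and so few arrays limit how precisely any value is known. The summed signal of 10 macrophage markers was 29362 to 44645 in tumoricidal and 27856 and 37562 in control arrays, which overlap. Csf1r, the receptor for the macrophage growth factor, was at 5913 to 6808 against 5186 and 5290.3. It was 1 of only 2 of the 10 with tumoricidal arrays fully on top, against 13.3% of all tested probe sets. Of the 10, 9 were positive, and Cd14 was at -0.18. Under quantile normalization 6 were positive and 4 negative, with a median of 0.01, and 0 lay fully on top. The BioC spike-in probes put the arrays into group A (tumoricidal replicates 1 and 2, control replicate 1) and group B (tumoricidal replicate 3, control replicate 2), and both hold both conditions. As each sample is a bulk of sorted cells, fewer cells of a type and less RNA per cell cannot be told apart.

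All 6 inducible genes had higher signals in every tumoricidal array than in either control array, with a median log2 difference of 1.85 against 0.09 over all tested probe sets. None of their 7 probe sets passed limma's adjusted p under 0.05, which 0.0341% of all tested probe sets passed in this direction, 0.0171% in the other and 0.0512% in either. At an unadjusted p under 0.05 all 7 were higher, against 4.92% of all probe sets. These counts include Ubd, whose probe set entered the fit through its tumoricidal arrays alone, as both control arrays lay under the floor. Complete separation with tumoricidal arrays on top was seen in 13.3% of all tested probe sets, and in 37% of the 2922 with a mean log2 signal over 9.

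Psmb9, which replaces Psmb6, had signals of 2359, 1591 and 2397 in tumoricidal replicates 1 to 3 and of 327 and 528 in control replicates 1 and 2. The lowest tumoricidal array was thus above both control arrays, and the log2 difference was 2.32 (SE 0.34, limma adjusted p = 0.153), a 5.01-fold ratio. Psmb10, the replacement of Psmb7, had 2305, 1303 and 2058 against 384 and 618. Its spread among tumoricidal arrays was wider, with a log2 difference of 1.91 (SE 0.37, adjusted p = 0.25 by limma). Psmb8, which replaces Psmb5 and whose upstream stretch holds the match to the gamma-activated site motif shown above, had 3051, 2066 and 2823 against 641 and 889. This amounted to 2647 ± 516 (SD, n = 3) against 765 ± 176 (SD, n = 2) with 1.79 between the log2 means (SE 0.30, adjusted p = 0.191 by limma). A further probe set of Psmb8 was dimmer but gave a similar difference, 1.85 (SE 0.29), with 193, 312 and 248 against 73.0 and 63.5.

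The activator ring genes had the smallest standard errors of the inducible genes. Psme1 had 2885, 2349.7 and 2955 in tumoricidal arrays and 959 and 1078 in control arrays, or 1.42 higher in log2 (SE 0.25, adjusted p = 0.205 by limma). The probe set annotated to both Psme2 and its near-copy Psme2b, which it cannot tell apart, had 3789.9, 2759 and 3196 against 1049.6 and 1123. Its log2 difference was 1.57 (SE 0.25, limma adjusted p = 0.177). The activator genes thus stood at 2.67-fold and 2.97-fold.

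Ubd had the largest difference of the 46 genes under the median scaling. Its signals were 59.4, 47.4 and 84.6 in tumoricidal arrays, while both control arrays, at 1.99 and 3.10, were under the floor. Tumoricidal signals were therefore at least 12.9-fold higher (log2 3.69), with a limma adjusted p of 0.0528. Both control values were set to the floor and so have no spread in that fit. The probe set entered it through its tumoricidal arrays alone. The adjusted p-values of Ubd thus rest partly on how low signals are handled and filtered. The Ubd difference passed with the deposited scaling (3.60, adjusted p = 0.0374) and with quantile normalization (3.62, adjusted p = 0.0405), and over all alternatives limma's adjusted p ran from 0.000753 to 0.908.

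**Figure D1:**
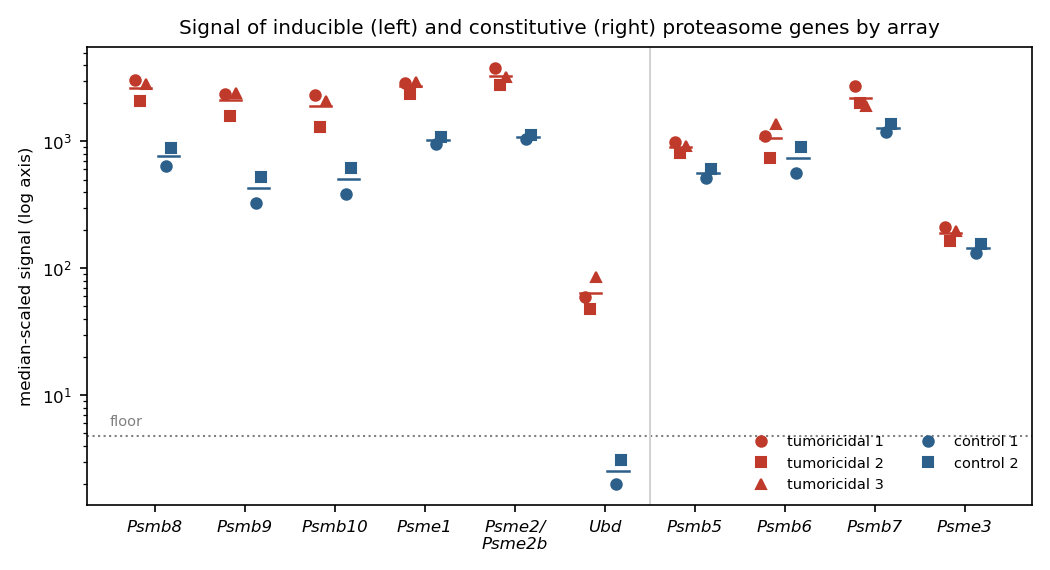
Median-scaled signal (log axis) of the inducible genes (left of the line) and of the constitutive catalytic genes and Psme3 (right), with 1 point per array, red for tumoricidal and blue for control, and a bar at each group mean. The dotted line is the floor of 4.79; both control arrays of Ubd lie under it, and red and blue points are apart for all 6 inducible genes but overlap for Psmb6.

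How many members passed depended on how low signals were handled. With a pseudocount of 16 in place of the floor, limma called 7 of the 7 inducible probe sets higher and 0 others of the 93, with adjusted p between 0.000753 for Psmb9 and 0.00895 for Psme1, and 364 probe sets higher in all. With only probe sets above the median signal, 5 of the 93 passed, those of Psmb8 (both), Psmb9, Psme2/Psme2b and Ubd, among 168 higher in all. Leaving out any single array left 0 calls on the whole array, members included.

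The constitutive catalytic genes had log2 differences from 0.52 to 0.78, with a median of 0.69. None of the 3 passed. Psmb5, the chymotrypsin-like subunit, had 985, 815 and 919.5 against 517 and 608, and its groups did not overlap (0.69, SE 0.24, limma adjusted p = 0.560). Psmb7, the trypsin-like subunit, had 2720.0, 2008 and 1899 against 1181 and 1372, also without overlap (0.78, SE 0.27, limma adjusted p = 0.562). Psmb6, the caspase-like subunit, had 1093, 733 and 1361 against 565 and 908. Here tumoricidal replicate 2 lay below control replicate 2, and the difference was 0.52 (SE 0.38, limma adjusted p = 0.807).

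Within each array, the signal of the replacing subunit relative to the replaced one does not depend on any factor by which a whole array is multiplied. All 3 exchanges gave larger within-array log2 differences in every tumoricidal array than in either control array. The share of other gene pairs that separate in this way was not computed. Only the change between groups is read here, since levels of different probe sets cannot be compared. For Psmb9 minus Psmb6 the values were 1.11, 1.12 and 0.82 in tumoricidal and -0.79 and -0.78 in control arrays, a change of 1.80, or 3.48-fold. It was 1.90 within spike-in group A and 1.60 within group B. Psmb8 minus Psmb5 was 1.63, 1.34 and 1.62 against 0.31 and 0.55, a change of 1.10. That change was 1.18 and 1.07 within groups A and B. For Psmb10 minus Psmb7 the values were -0.24, -0.62 and 0.12 against -1.62 and -1.15, the widest spread of the 3 within both groups. The change was 1.14, and 1.19 and 1.27 within groups A and B.

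The activator genes were set in the same way against Psme3, whose product forms a related activator ring in the nucleus and is not part of the interferon programme. Psme1 minus Psme3 was 3.77, 3.85 and 3.91 in tumoricidal arrays and 2.87 and 2.79 in control arrays, a change of 1.01. For the Psme2/Psme2b probe set the change was 1.17. Psme3 itself had 211, 163 and 197 against 131 and 156, a log2 difference of 0.40 (SE 0.25). With 3 against 2 arrays an exact two-sided permutation test cannot give a p under 0.2, so none was run on these values.

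**Figure D2:**
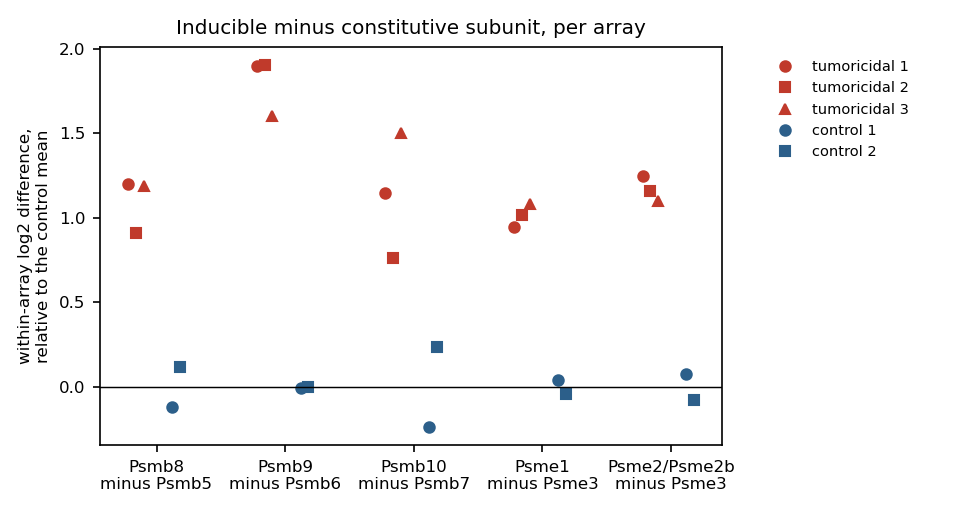
Within-array log2 difference between a replacing or inducible gene and its constitutive counterpart, for 3 catalytic exchanges and 2 activator pairs, drawn relative to the control mean of each pair (y axis), with 1 point per array. In all 5 pairs the 3 red tumoricidal points lie above both blue control points. Both activator pairs are set against Psme3, and the share of other gene pairs that separate in this way was not computed.

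The other core subunits had smaller differences that were all positive under the median scaling. Of 13 genes, 0 passed, and 11 had all tumoricidal arrays above both control arrays. That separation was seen in 13.3% of all tested probe sets, and in 37% of those with a mean log2 signal over 9. The median difference of these bright probe sets was 0.28, so a positive sign is not particular to the core genes. The core median was 0.59, and it was 0.36 with the deposited scaling and 0.23 with quantile normalization. All 7 ubiquitous alpha ring genes, Psma1 to Psma7, were among the 11, with differences from 0.48 to 0.99.

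Psma5 led the alpha ring, with 2881, 2675 and 3392 against 1362 and 1648, a difference of 0.99 (SE 0.25, limma adjusted p = 0.381). A further bright probe set of Psma5 gave 1.07 (SE 0.25). Next came Psma4, with 2145, 2047 and 2214 against 1132 and 1452 (0.74, SE 0.24). At the low end of the ring, Psma2 had 2134, 2123 and 2572 against 1346 and 1780.0 (0.55, SE 0.26), and Psma6 had 3096, 3248 and 3284 against 2141 and 2462 (0.48, SE 0.23). The arrays of each group did not overlap for any of these 4 genes.

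Among the non-cutting beta subunits, Psmb2 had the largest difference, 1.01 (SE 0.44), but also the widest spread. Its signals were 778, 337 and 569 against 208 and 334, so that tumoricidal replicate 2 was barely above control replicate 2. Psmb3 had 1899, 1482 and 1300.4 against 930.1 and 959.5 (0.71, SE 0.27). Psmb1 had 1303, 1442 and 1293 against 727 and 1139.9 (0.56, SE 0.29). For Psmb4 the values were 2453, 2913 and 2786 against 1866 and 2155 (0.43, SE 0.24). Control replicate 2 was the higher control array for all 4 genes.

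Core subunits made for single tissues were near the floor. Psmb11, the catalytic subunit of thymus cortex, had 15.4, 1.16 and 11.5 against 1.67 and 1.10, with 1 tumoricidal and both control arrays under the floor, so that its difference of 0.98 rests on the floor. Psma8, the alpha subunit of testis, had 21.2, 22.8 and 10.8 against 13.1 and 19.9. Its groups overlapped (0.10, SE 0.42), and the sign turned with the deposited scaling (-0.13).

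The regulatory caps differed least. Of 22 genes 0 passed, all 22 had positive differences under the median scaling, and 16 had groups that did not overlap. Tumoricidal arrays lay fully on top in 13.3% of all tested probe sets and in 37% of the bright ones, whose median difference was 0.28. The cap median was 0.46, from 0.22 for Psmd1 to 0.90 for Psmd10. With the deposited scaling it was 0.23, with 21 of 22 positive, and with quantile normalization 0.20, with 18 of 22 positive.

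The 3 Psmd genes that encode chaperones for building the cap base, rather than cap subunits, had differences of 0.90 (Psmd10), 0.65 (Psmd9) and 0.58 (Psmd5). Psmd10, also called gankyrin, had 291, 267 and 305 against 119 and 199 (SE 0.30, limma adjusted p = 0.534), and Psmd9 had 147, 114 and 122 against 61.5 and 108 (SE 0.33). Neither gene's groups overlapped. Of the lid subunits, Psmd7 had 523, 392 and 423 against 258 and 309 (0.65, SE 0.26). Psmd2, a base scaffold, had 1203, 700.0 and 1154 against 505 and 839.7 (0.60, SE 0.38), and its groups overlapped. Psme4, a single-chain activator of the core, had 767, 674 and 772 against 416 and 556 (0.61, SE 0.25), without overlap.

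The ATPases that unfold substrates had a median of 0.32 over 6 genes, against 0.44 over the 11 Psmd subunits and 0.46 over the whole cap, and ran from 0.24 for Psmc4 to 0.55 for Psmc3. Psmc4 had 895, 991 and 677 against 889.7 and 574. Psmc1 had 579, 419 and 644 against 349.8 and 579. Both genes' groups overlapped, as did those of Psmd1, the other base scaffold, with 589.6, 677 and 842 against 596 and 599. Psmc6 (0.28, SE 0.24) had 971, 931 and 1091 against 736 and 907, and Psmc5 (0.35, SE 0.25) had 679.8, 525 and 660.0 against 473 and 496; neither overlapped. With quantile normalization the differences of Psmc4, Psmc1, Psmc6 and Psmd1 were between -0.07 and -0.0015, so that no direction holds for these 4 genes.

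**Figure D3:**
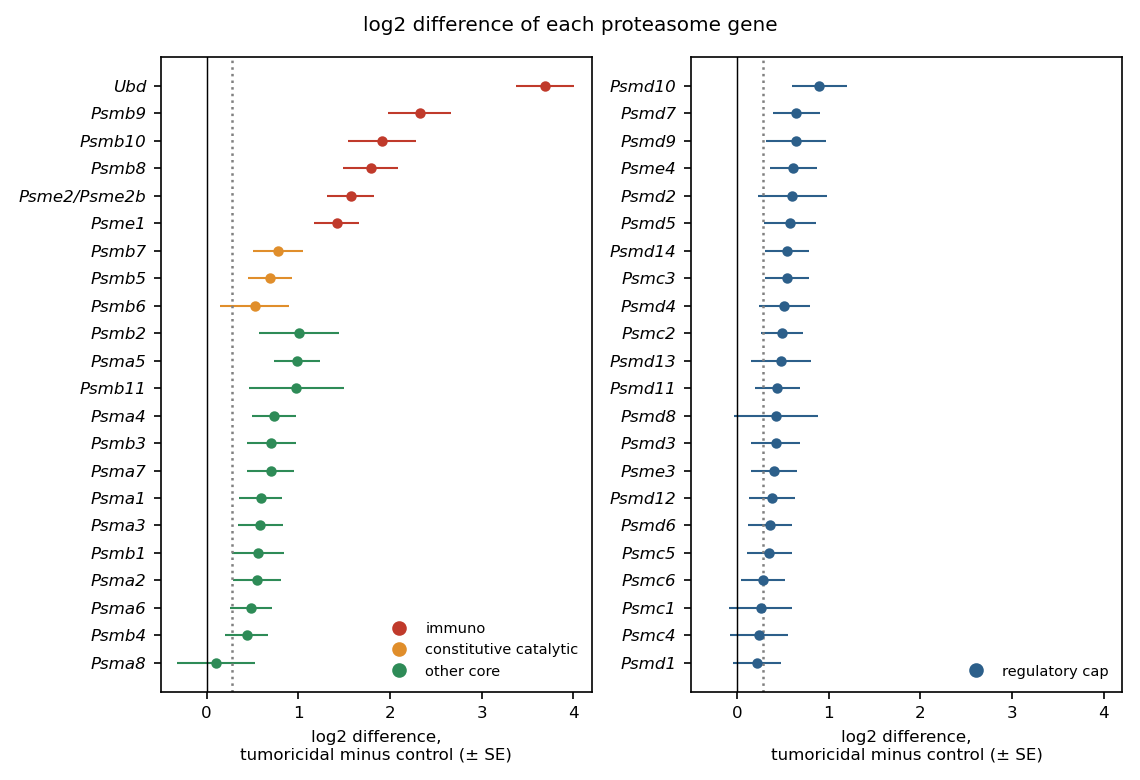
log2 difference (tumoricidal minus control, median scaling; x axis) of each subunit gene with its standard error from limma, by group (3 tumoricidal and 2 control arrays). The 6 inducible genes run from 1.42 to 3.69 and all core and cap genes lie at or below 1.01; the solid line is 0 and the dotted line is 0.28, the median over the 2922 probe sets with a mean log2 signal over 9.

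The size of the constitutive genes' differences moved with the scaling. Over the 2922 probe sets with a mean log2 signal over 9, where 32 of the 46 members lie, the median difference was 0.28 with the median scaling, 0.05 with the deposited scaling and -0.03 with quantile normalization. Over all tested probe sets these medians were 0.09, -0.10 and 0. The members' values stand beside that shift, which was well under the inducible median of 1.85 (1.62 deposited, 1.52 quantile), and closer to the medians of the cap. Under quantile normalization, groups did not overlap for 5 of 5 bright inducible genes, 1 of 3 constitutive catalytic, 6 of 10 other core and 2 of 14 cap genes, against 18.1% of all bright probe sets. With the deposited scaling the same counts were 5, 2, 8 and 6, against 22.9%, and with the median scaling 5, 2, 10 and 10, against 37%. Over all members and all tested probe sets, bright or dim, 6 inducible, 1 catalytic, 7 core and 8 cap genes separated under quantile normalization (background 10.4%), and 6, 2, 9 and 11 with the deposited scaling (background 7.53%). For bright cap genes under quantile normalization the share, 2 of 14, is near its background, whereas for all cap genes it is 8 of 22 against 10.4%.

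**Figure D4:**
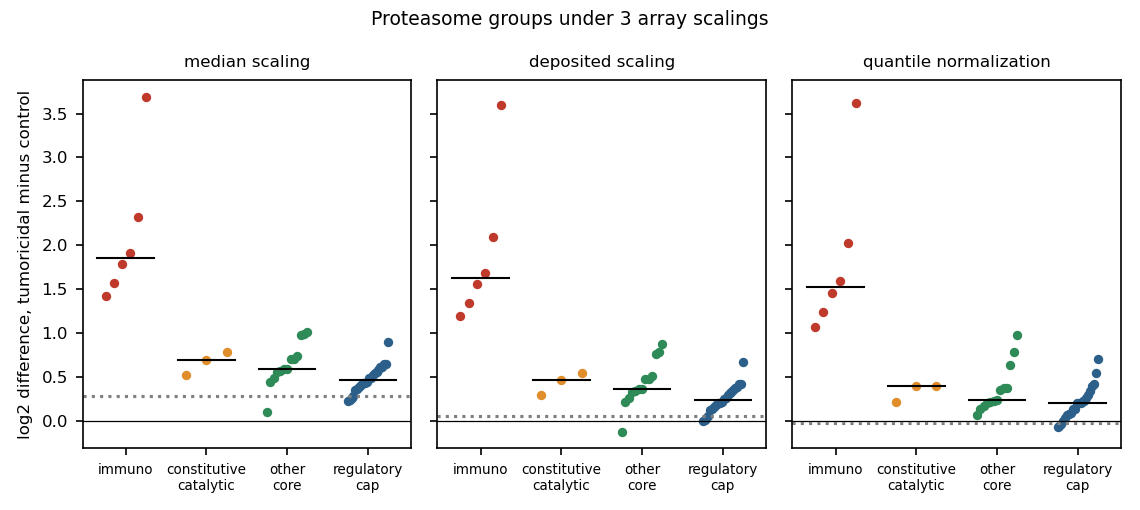
log2 difference (tumoricidal minus control; y axis) of each gene by group under 3 array scalings, with a black bar at the group median and a dotted line at the median over the 2922 bright probe sets under the same scaling. The dotted line is at 0.28, 0.05 and -0.03. The inducible medians of 1.85, 1.62 and 1.52 stay far above it, while those of the cap, 0.46, 0.23 and 0.20, lie above it by less.

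Core and cap were also compared within arrays, where a factor common to the array cancels. The mean of Psma1 to Psma7 minus the mean of Psmc1 to Psmc6 was 1.29, 1.41 and 1.44 in tumoricidal and 0.99 and 1.17 in control arrays, a change of 0.30 with no overlap. Against the 11 Psmd subunits the change of the alpha mean was 0.20, with 1.46, 1.67 and 1.54 against 1.37 and 1.33. The beta subunits Psmb1 to Psmb4 gave changes of 0.32 and 0.22 against the same sets, also without overlap, the latter by 0.05. Between the Psmd and Psmc sets themselves the arrays overlapped (change 0.10). How often other sets of genes separate in this way was not computed.

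**Figure D5:**
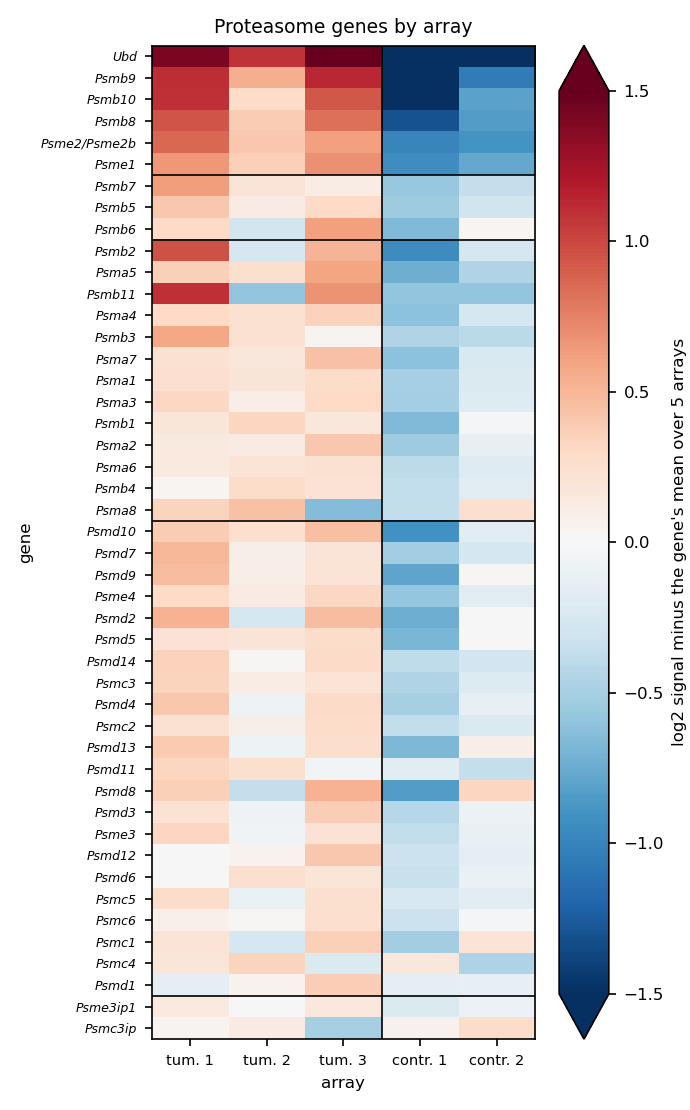
log2 signal of the 46 genes (rows, by group and then by difference) on each of the 5 arrays (columns), with the gene's mean over arrays subtracted; red is above and blue below that mean, and colours saturate at 1.5. The 6 inducible genes at the top have red in all tumoricidal and blue in both control columns, and control replicate 1 is below control replicate 2 for 42 of 46 genes.

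Single arrays moved these values by different amounts. Control replicate 1 lay below control replicate 2 for 42 of 46 genes with the median scaling, but for 20 with the deposited scaling. It was also the array with the largest difference between 3′ and 5′ Actb control probe sets, a measure that grows with RNA degradation (0.56, against 0.28 to 0.32 on the other 4 arrays). Without it the medians were 1.56 for inducible, 0.57 for constitutive catalytic, 0.45 for other core and 0.29 for cap genes, the last a move of over 1.5 times. Tumoricidal replicate 2 was the lowest tumoricidal array for all 6 inducible genes. Without it the inducible median was 2.06.

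Markers of other cells differed between the groups too, and lymphocytes are known to make immunoproteasome subunits without stimulation. All 7 measured natural killer markers had tumoricidal arrays above both controls under the median scaling, against 13.3% of all tested probe sets. Under either other scaling 5 of 7 did, against 7.53% (deposited) and 10.4% (quantile). The summed signal of these markers was 3085, 3263 and 1181 against 575 and 245. T-cell markers summed to 130, 1155 and 129 against 103 and 83.3, so that their excess lay mainly in tumoricidal replicate 2. Of the 8, 3 were fully higher, against the same 13.3%.
Plasma cell or myeloma markers were mixed, with 6 of 10 fully lower, against 7.6% of all tested probe sets, 2 fully higher (Xbp1 and Prdm1, by 0.30 and 0.66), and sums of 3603 to 4906 against 5692 and 6387. Neutrophil markers, with 5 of 6 fully higher against 13.3% of all tested probe sets, summed to 9169.7 to 10274 against 3888 and 6566. B-cell markers, at sums of 148 to 314 against 132 and 154, overlapped, and Cd79a was under the floor on 3 of 5 arrays. Dendritic cell markers (0 of 6 fully higher, 1 fully lower; 285 to 431 against 401 and 569.9), fibroblast markers (1140.4 to 3997 against 1768 and 3063) and endothelial markers (93.0 to 145 against 95.4 and 121) overlapped in sum. The defining plasma cell marker Tnfrsf17 was under the floor on all 3 tumoricidal arrays and at 24.2 and 37.2 in the controls. The part of these cells in the proteasome values was not tested.

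Apart from interferon-linked regulators and Pomp, genes that work with the proteasome had small differences whose signs often turned with the scaling. Of 32 listed genes 22 were measured, and 0 passed in either direction. Their median difference was 0.33 with 22 of 22 positive under the median scaling, but 0.10 with 13 positive under the deposited scaling and 0.11 with 14 positive under quantile normalization. For 9 of 22 all tumoricidal arrays lay above both control arrays, against 13.3% of all tested probe sets, and for 0 they lay below. These counts were 6 above and 2 below with the deposited scaling, and 7 above and 2 below with quantile normalization. Under the median scaling 4 were higher and 0 lower at an unadjusted p under 0.05, against 4.92% and 3.07% of all probe sets. Pomp, the chaperone that matures the core and is needed in quantity for immunoproteasome assembly, had 2871, 1698 and 2202 against 859 and 1254, a difference of 1.09 (SE 0.33, limma adjusted p = 0.492). The other 3 of the 4 were interferon-linked regulators of transcription, which kept positive differences and separate groups under all 3 scalings. Irf1 had 2554, 1874 and 4135 against 353 and 659 (2.49, SE 0.45), Nlrc5 had 531, 528 and 882 against 166 and 205 (1.77, SE 0.33) and Irf8 had 1264, 1066 and 1483 against 572 and 672 (1.02, SE 0.26).
The core assembly chaperone Psmg4 followed with 0.72 (SE 0.30). Nfe2l1, which drives constitutive proteasome genes as a set, had 179, 148 and 173 against 105 and 191, with overlap (0.23, SE 0.33), and its relative Nfe2l2 differed by 0.51 (SE 0.44) with overlap. Ngly1, which processes Nfe2l1, differed by 0.40 (SE 0.27). The receptors and deubiquitinases at the cap gave a median of 0.15 over 7 genes, led by Sem1 (0.30) and Ubqln1 (0.22), and with the deposited scaling or quantile normalization 6 of the 7 were negative. Ube2z, which loads Ubd's product, differed by 0.39 and Uba6, which activates it, by 0.04 (negative under both other scalings), and the proteasome inhibitor Psmf1 differed by 0.42.

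The 46 genes were represented by the probe set with the highest mean signal, and 23 of them had further probe sets. Of these 47 further probe sets 45 were tested, and 30 had a mean log2 signal under 7, and all 16 with a negative difference were among those 30. Of the 8 with a mean log2 over 9, all 8 were positive. Psmd11 had the most, 8 in all, and its brighter ones gave 0.44, 0.58, 0.34 and 0.09. The most negative value, -0.79 (SE 0.35), came from a Psmb1 probe set with 30.2, 38.2 and 19.2 against 48.2 and 48.9, which went against the brighter Psmb1 probe set. The non-subunit genes, Psmc3ip of meiotic recombination and Psme3ip1, a partner of Psme3, differed by -0.28 (SE 0.29) and 0.25 (SE 0.23).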

How the data were processed

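Linear signal intensity per probe set, as the authors deposited it, was used for all 5 Affymetrix arrays. The labels' protocols give 6 µg of total RNA as input, and no source used here names the software. Array means trimmed by 2% at each end were equal in the deposited values, whereas array medians differed by up to 1.47 times. Arrays were brought to a common median, 64 control probe sets were left out, signals below the pooled 25th percentile (4.79) were set to it, and log2 was taken. A further 3984 probe sets lay at this floor on all arrays. The remaining 41053, with 91 of the 93 members, entered one limma model (lmFit, then eBayes; no trend or covariate; two-sided), and Benjamini-Hochberg adjustment ran over all of them. The software was limma 3.58.1 under R 4.3.3; Python 3.11.15 and matplotlib 3.10.9 drew the figures. The model was tested on simulated data.

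Gene symbols came from the platform annotation, and 92 member probe sets with 1 symbol matched RefSeq genes of GRCm38.p6 with 0 changes of name. Promoter sequences are RefSeq's. Members and lists were chosen with earlier results of these data known, so lists have counts and medians and no test. Named genes were all inducible and constitutive catalytic genes, the 5 highest and 5 lowest differences of the other core and cap genes, Psme3, Psme4, Psma8, Psmb11, any member past the threshold, and the 2 largest differences in each list of partner genes. Psmd5, Psmc3, Psmd11, Irf8, Nfe2l1, Csf1r, Cd79a, Tnfrsf17, Xbp1, Prdm1 and the non-subunit genes were named with their values already seen. Quantile normalization joined with the spike-in block was an alternative chosen after seeing the data. Scaling, floor, filter, variance prior, replicate and spike-in blocks, probe sets and left-out arrays were also varied. P-values set each difference against the spread between these arrays, which limma's eBayes step estimates partly from all tested probe sets.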

Additional observations from a re-analysis of the deposited data

How the results depend on the processing

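Over the whole array, limma called 14 probe sets higher and 7 lower, and these counts moved with the setting: 0 and 0 with the floor at the 10th percentile, 364 and 86 with a pseudocount of 16, 168 and 25 with only probe sets above the median, 41 lower without a filter, and 58 higher with a variance trend. Blocking on the spike-in group, group A alone, and quantile normalization with that block gave 0 and 0, and leaving out any array gave 0 to 0. Of the proteasome probe sets, 0 passed, against 1 (Ubd) with the deposited scaling or quantile normalization, 7 with the pseudocount and 5 above the median.

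The replicate block gave 0 higher and 0 lower. Same-numbered arrays did not deviate together (r = 0.02 and -0.24). With 2 control arrays, whose deviations mirror each other, these values cannot tell whether same-numbered arrays share more than a number. Leave-one-out medians ran from 1.56 to 2.14 for inducible, 0.57 to 0.87 for constitutive catalytic, 0.45 to 0.75 for other core and 0.29 to 0.61 for cap genes. Changes within arrays ran from 0.98 to 1.22 for Psmb8 minus Psmb5, 1.75 to 1.90 for Psmb9 minus Psmb6, 0.90 to 1.37 for Psmb10 minus Psmb7, 0.97 to 1.06 for Psme1 minus Psme3 and 1.09 to 1.25 for Psme2/Psme2b minus Psme3.

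Medians of other core and cap genes were 0.36 and 0.23 with the deposited scaling, 0.23 and 0.20 with quantile normalization, 0.22 and 0.18 with the spike-in block added, and 0.14 and 0.14 over all further probe sets; within group A the core median was 0.82. Psme1 minus Psme3 changed by 0.85 with quantile normalization, with or without the block, by 0.94 in group A, 1.12 in group B and 1.43 with other Psme3 probe sets. Psme2/Psme2b minus Psme3 changed by 1.02 with quantile normalization, 0.99 with its block and 1.59 with other Psme3 probe sets. Both values with other Psme3 probe sets use the median of their differences, 0.45 and -0.48. The probe set at -0.48 lay under the floor on all 3 tumoricidal arrays, so both values rest partly on the floor. Psmb9 minus Psmb6 changed by 1.60 in group B.

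Of the values for named members under alternatives, 498 kept their direction and did not pass the threshold, 12 newly passed it and 24 turned sign. The 498 include values within spike-in group B, where a single array per condition allowed no test. As no member passed in the main fit, not passing under an alternative does not measure stability. Psma8 was -0.13 with the deposited scaling, -0.89 in group B and -0.042, -0.096 and -0.20 without tumoricidal replicates 1 or 2 or control replicate 1, up to 0.45 without tumoricidal replicate 3. Psmd1 was -0.0099 with the deposited scaling, and quantile normalization gave Psmd1 -0.070, Psmc4 -0.067, Psmc1 -0.0015 and Psmc6 -0.037. With the block added it gave Psmd1 -0.087, Psmc4 -0.21 and Psmc6 -0.053. Leaving out single arrays moved Psmc1 from -0.10 (without control replicate 1) to 0.62 and Psmc4 from -0.076 (without control replicate 2) to 0.56. Dimmer probe sets gave Psma6 -0.61 and -0.24, Psmb1 -0.79, Psmc6 -0.089, Psmd2 -0.16, Psme4 -0.17 and -0.030, Psmd7 -0.42 and Psme3 -0.48. The cause of these moves was not tested.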
